A study of Mus musculus with 9 samples.

Results

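The subject is a set of 36 genes for protein folding in the endoplasmic reticulum (ER), for ER-associated degradation (ERAD) and for the unfolded protein response (UPR), followed through threonine (Thr) and cysteine (Cys) starvation of mouse embryonic stem (ES) cells. The members were named from known function, with no expression value in the rule, and each was found by its GENCODE symbol among the 20189 genes of the deposited count table. The choice was made with earlier results of these data known, however. Shares of the members set beside those of all genes are therefore descriptive. They comprise 10 chaperones and cochaperones of the ER lumen, 9 oxidoreductases, 2 peptidyl prolyl isomerases, 9 ERAD components, 2 translocon subunits and 4 stress sensors or transcription factors. All 36 had counts in every library and entered the tests.

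The 9 libraries came from wild-type E14 cells, an established mouse ES cell line, so that all groups share 1 genetic background. Cells were grown on gelatin in high glucose DMEM with 15% fetal bovine serum and leukaemia inhibitory factor (LIF), and by their sample titles 3 libraries were starved of Thr, 3 were starved of Cys and 3 were unstarved. The treatment text attached to these libraries gives 3 h of starvation in SILAC medium with 5% dialyzed serum and LIF, and the same medium with all amino acids for controls, but it names only Arg and Leu as the amino acids left out. The study's methods give a different, Cys-free DMEM for other Cys experiments, so the medium used for the Thr and Cys libraries, and whether the controls were held in a matching one, is not settled by the sources used here. Where the media differed, medium and amino acid cannot be told apart. Poly(A) RNA was sequenced, and each library held 48763102 to 74962733 counted reads after Thr starvation, 57700492 to 62657358 after Cys starvation and 54294288 to 61459894 without starvation. The labels number the replicates but do not say that they are separate cultures, so the p-values measure only the spread between these libraries, which may be technical.

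The ER folds and oxidizes proteins that enter through the translocon, and its chaperones and protein disulfide isomerases are among the most abundant proteins of the compartment. When unfolded chains accumulate, the sensors IRE1 (encoded by Ern1), ATF6 and PERK (encoded by Eif2ak3) start the unfolded protein response: IRE1 splices the Xbp1 transcript, ATF6 is cut to release a transcription factor, and PERK phosphorylates eIF2α. Amino acid shortage reaches the same eIF2α site through a different kinase, GCN2, and the shared branch downstream of it, which includes ATF4, is called the integrated stress response (ISR).

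Promoter sequence did not itself enter the choice of members. They were named for roles in ER folding and the UPR, however, so their share of ER stress elements is not independent of that choice. The ER stress response element (ERSE), bound by ATF6 together with NF-Y, was searched on both strands as CCAAT, 9 bases of any kind and CCACG, in windows from 250 bases before to 50 bases after each transcription start (RefSeq, GRCm38.p6). Windows were at hand for 29 of the 36 members, leaving Hyou1, Manf, Ero1l, Ero1lb, Derl1, Sec61a1 and Atf6 without one. An ERSE was found in 9 of the 29 (31.0%) and in 23 of 12175 tested genes with a window (0.189%). The 10 sites are shown because, of the 5 motifs searched, this one had the largest ratio between its share in the members and its share in all promoters. Each is written 5′ to 3′ on the strand of its gene with 5 bases either side, and capitals mark the 2 ends of the element. A match on the opposite strand reads CGTGG and then ATTGG.

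Hspa5, plus strand, chr2:34772020-34772048: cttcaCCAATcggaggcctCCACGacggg
Hsp90b1 (far site), minus strand, chr10:86705633-86705661: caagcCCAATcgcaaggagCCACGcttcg
Hsp90b1 (near site), minus strand, chr10:86705528-86705556: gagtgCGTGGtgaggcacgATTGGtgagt
Pdia6, plus strand, chr12:17266486-17266514: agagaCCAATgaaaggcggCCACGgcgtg
Creld2, plus strand, chr15:88819515-88819543: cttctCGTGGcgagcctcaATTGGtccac
Calr, minus strand, chr8:84847070-84847098: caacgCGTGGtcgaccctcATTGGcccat
Canx, minus strand, chr11:50325795-50325823: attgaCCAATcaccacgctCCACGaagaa
Dnajc3, plus strand, chr14:118937822-118937850: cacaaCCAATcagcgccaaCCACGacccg
Syvn1, plus strand, chr19:6046527-6046555: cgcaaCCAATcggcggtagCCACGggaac
Derl3, plus strand, chr10:75893237-75893265: tctacCGTGGgacttccccATTGGctagc

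All 10 sites lay upstream of the RefSeq start, and only that of Hspa5 fell within an exon of the GENCODE M21 annotation, one of an alternative Hspa5 transcript. The Herpud1 promoter is shown in addition because it was the only member window that held both a site of the ATF4 type and a second ER stress element. The ATF4 site was searched as TGATGNAA, and the second element, ERSE-II, as ATTGG, 1 base and CCACG. In the stretch from 132 to 22 bases before the Herpud1 start, the first capitals mark the ATF4 site, which reads on the opposite strand, and the second mark ERSE-II. This stretch overlaps Gm15890, a gene annotated on the other strand, but none of its exons.

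Herpud1, plus strand, chr8:94386297-94386407: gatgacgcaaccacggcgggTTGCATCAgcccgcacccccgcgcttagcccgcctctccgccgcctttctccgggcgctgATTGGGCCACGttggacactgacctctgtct

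ERSE-II was present in 2 of 29 members (6.90%), Herpud1 and Dnajb11, against 0.0903% of the 12175 genes. The ATF4 site was present in Herpud1 and Txndc5 (6.90%) against 2.78%, and the UPR element TGACGTGG in Txndc5 (3.45%) against 1.03%. The cAMP response element TGACGTCA was in none of the 29 and in 3.35% of all genes. These are matches of letters within fixed windows, and binding at them was not measured.

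**Figure D1:**
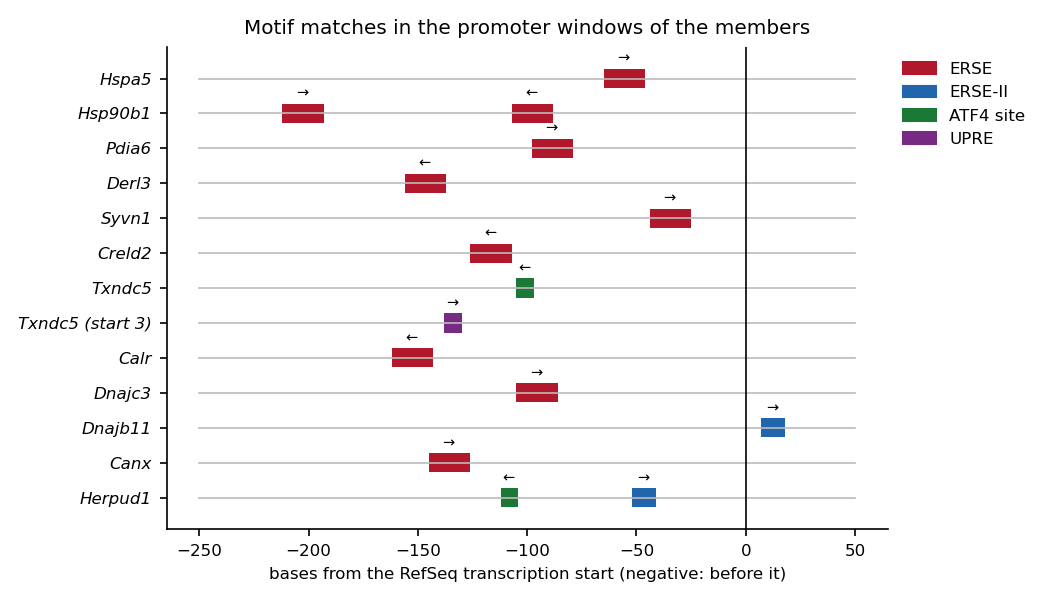
Positions of motif matches in the RefSeq promoter windows of the members that held any, with bases from the transcription start on the horizontal axis (negative before the start, the window running from 250 before to 50 after) and 1 line per window; arrows give the strand of the match relative to the gene, and a second Txndc5 start has its own line. ERSE matches occupy 9 members, 2 of them in Hsp90b1, and Herpud1 carries an ATF4 site and an ERSE-II.

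Among the members, threonine starvation lowered most of the chaperones and oxidoreductases and raised most of the ERAD components. Of the 36 members, 22 fell and 11 rose against the unstarved libraries, while Ero1l, Dnajc3 and Fkbp2 did not pass the test (edgeR's quasi-likelihood test with Benjamini-Hochberg adjustment over all 20143 genes tested, adjusted p of 0.05 or less). Across all genes 31.9% were called lower and 31.1% higher, and among the 11410 genes averaging 5 CPM or more (CPM, counts per 1000000 reads of the scaled library) these shares were 39.1% and 41.5%, against 61.1% and 30.6% of the members. The median log2 fold change of the members was −0.35, beside −0.02 for all genes and 0.01 for genes at 5 CPM or more. On the log2 scale 6 members (16.7%) fell by at least 1 and 2 (5.56%) rose by as much, where 7.46% and 5.79% of all genes did so (4.30% and 3.61% at 5 CPM or more). In bulk libraries fewer cells of a type and less RNA per cell cannot be told apart, and every level below is a share of the counted RNA.

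After cysteine starvation the members' fold changes spanned a narrower range, from −0.63 to 0.89 on the log2 scale, beside −2.35 to 1.3 after Thr starvation. Cys starvation lowered 20 members and raised 7, with 18.8% of all genes called lower and 17.5% called higher (30.5% and 24.6% at 5 CPM or more). The member median was −0.16, beside 0.01 for all genes and −0.02 at 5 CPM or more, and no member changed by as much as 1 on the log2 scale, a size that 0.273% of all genes reached downward and 1.20% upward (0.0351% and 0.298% at 5 CPM or more). Over all genes called, 48.2% were higher, a share that was 36.8% when the libraries were scaled by the deposited size factors, with 22 members lower and 5 higher. Both starvations were compared with the same 3 unstarved libraries, so their fold changes are set side by side and their likeness is not used as a result.

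Summed over the members, the level was 6727 ± 63.5 CPM in the unstarved libraries (SD, n = 3), 5677 ± 63.9 after Cys starvation and 4676 ± 79.7 after Thr starvation. The 10 chaperones contributed 3633 ± 31.5, 3041 ± 30.8 and 2567 ± 44.3 CPM in that order, and the 9 oxidoreductases 2090 ± 23.1, 1641 ± 22.5 and 1085 ± 27.9 CPM. The sum of the 9 ERAD genes went the other way, from 388 ± 2.35 to 419 ± 5.68 and 454 ± 2.47 CPM, as did that of the 4 sensors and factors, from 189 ± 2.42 to 199 ± 2.5 and 210 ± 4.69 CPM. Neither group moved as a whole. Mean Herpud1 went from 42.6 to 78.9 and 72.7 CPM and Selenos from 23.9 to 28.8 and 58.9. Edem1 fell in both starvations, and Derl3 and Syvn1 fell with Thr starvation. Atf6 went from 42.7 to 54.1 and 88.0 CPM, while Xbp1 fell from 69.2 to 62.4 and 29.5. In all 4 sums the 3 groups did not overlap.

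**Figure D2:**
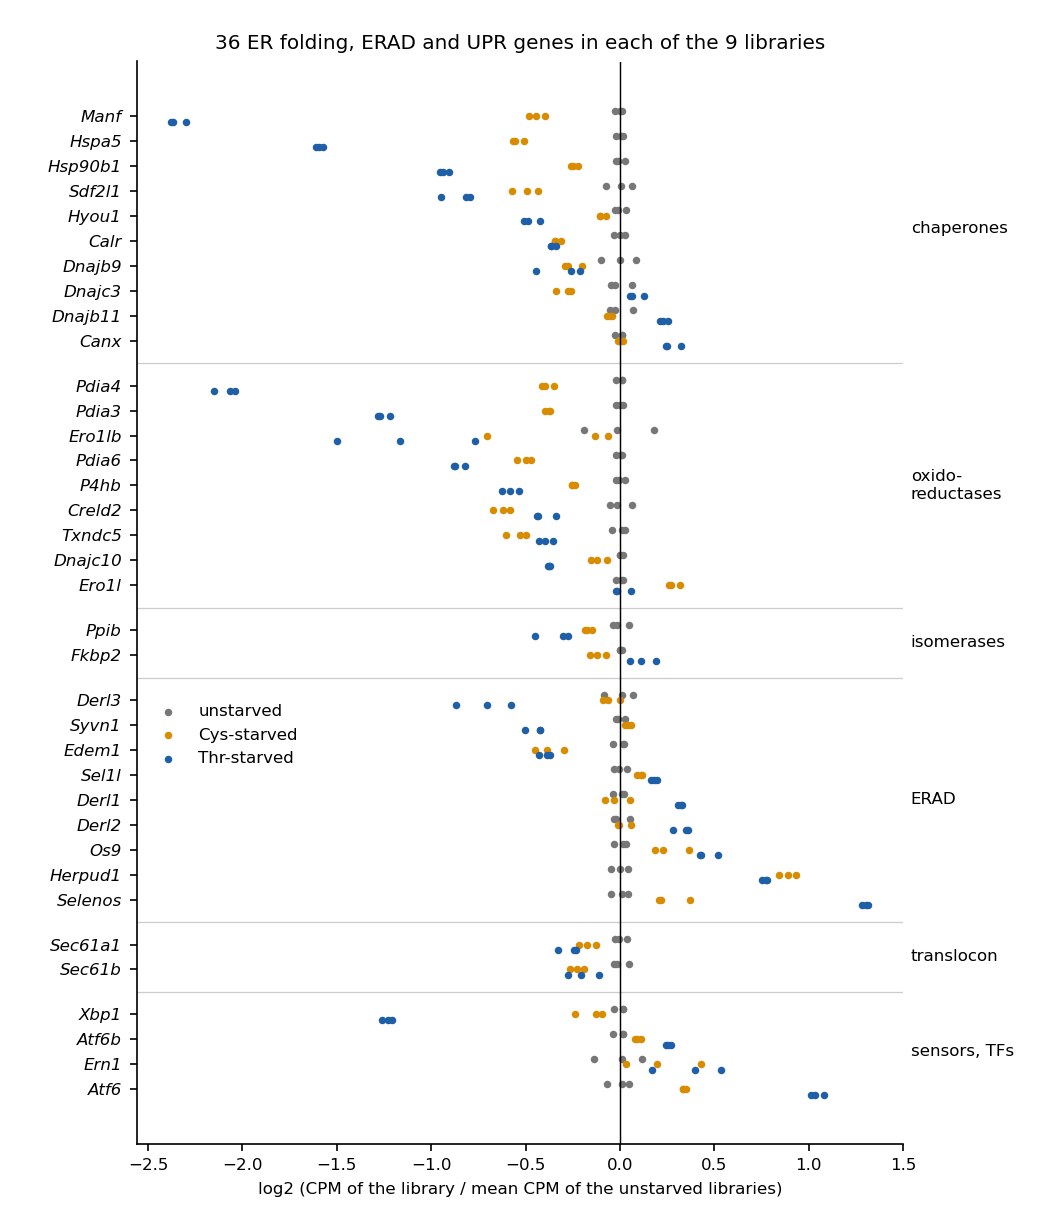
Each of the 36 members in each of the 9 libraries, as the log2 ratio of its CPM to the mean of the 3 unstarved libraries (horizontal axis), grouped by role and coloured by condition. Chaperones and oxidoreductases extend to the left, with Manf and Pdia4 below −2 after Thr starvation, whereas Selenos, Herpud1 and Atf6 lie to the right.

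Among the chaperones of the ER lumen, 7 of 10 fell and 2 rose with Thr starvation, and 8 fell with none rising after Cys starvation. Hspa5 (ENSMUSG00000026864, chr2:34771970-34777547 in GRCm38), the HSP70 chaperone BiP that also holds the UPR sensors inactive, stood at 733, 746 and 753 CPM in the unstarved libraries, 507, 523 and 502 after Cys starvation and 246, 244 and 250 after Thr starvation. The 3 groups were fully separate, with Thr-starved libraries at a level of 33.2% of the controls and Cys-starved libraries at 68.6%. The log2 fold change was −1.59 ± 0.021 (SE, n = 3 per group, edgeR adjusted p = 7.4e-24) with Thr starvation and −0.54 ± 0.021 (edgeR adjusted p = 5.4e-15) with Cys starvation. Complete separation of a starved group from the controls, in either direction, was widespread, here and for the genes below. With Thr starvation 66.5% of all genes showed it (82.0% at 5 CPM or more), and with Cys starvation 46.4% (63.7%).

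Manf (ENSMUSG00000032575, chr9:106838312-106891979), a secreted cofactor of BiP induced by ER stress, showed the largest decrease of the set. Its level was 108, 105 and 107 CPM without starvation, 78.5, 81.4 and 76.5 after Cys starvation and 21.7, 20.7 and 20.6 after Thr starvation. No groups overlapped, and the Thr-starved libraries held 19.7% of the control level (log2 fold change −2.35 ± 0.035, edgeR adjusted p = 3.8e-23) against 73.9% in the Cys-starved libraries (−0.44 ± 0.031, edgeR adjusted p = 2.3e-10). The annotated Manf locus overlaps Rbm15b on the same strand and Dcaf1 on the other, and Rbm15b had a log2 fold change of −0.85 with Thr starvation. How reads in shared stretches were assigned is not given in the sources used here.

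Sdf2l1, which keeps BiP clients from aggregating, had 38.0, 41.9 and 40.1 CPM in the controls, 26.9, 29.6 and 28.4 after Cys starvation and 23.1, 20.7 and 22.7 after Thr starvation. Its groups were again separate, with log2 fold changes of −0.85 ± 0.050 for Thr and −0.50 ± 0.048 for Cys (edgeR adjusted p = 8.8e-13 and 3e-08). Hsp90b1, the ER paralogue of HSP90 known as GRP94, fell by 0.93 with Thr starvation and by 0.24 with Cys starvation on the log2 scale. Hyou1, a nucleotide exchange factor for BiP, fell by 0.47 and 0.10. The lectin chaperone Calr fell by 0.36 and 0.33, and the BiP cochaperone Dnajb9 by 0.29 and 0.25. In the direct comparison of the starved groups Dnajb9 did not pass the test (−0.04, edgeR adjusted p = 0.61), but did with the trend on GC content and transcript length removed (−0.19, edgeR adjusted p = 0.0083, range 0.0083 to 0.94 over the settings tried).

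The remaining 3 chaperones were not called lower with Thr starvation. Canx, the membrane-bound lectin partner of calreticulin, rose by 0.27 with Thr starvation (688, 687 and 670 CPM in controls, 807, 811 and 854 after Thr starvation) and stood at 690, 686 and 677 CPM after Cys starvation, within the control range apart from its highest library (log2 fold change 0.01, edgeR adjusted p = 0.87). Dnajb11, a BiP cochaperone, rose by 0.23 with Thr starvation and had a log2 fold change of −0.05 with Cys starvation that did not pass the test (edgeR adjusted p = 0.22, and 0.023 with the deposited size factors, range 0.023 to 0.78 over the settings tried). Dnajc3, a BiP cochaperone known as P58IPK, was at 48.6, 47.9 and 51.7 CPM in controls, 39.1, 41.3 and 40.8 after Cys starvation and 53.9, 51.3 and 51.7 after Thr starvation. It fell by 0.29 with Cys starvation (± 0.038, edgeR adjusted p = 2.3e-06), and its Thr value of 0.08 (edgeR adjusted p = 0.061) depended on the setting, reaching 0.12 without unstarved replicate 3 (edgeR adjusted p = 0.017) and −0.09 with the trend on GC content and transcript length removed (edgeR adjusted p = 0.036, range 0.017 to 0.18 over the settings). With that trend removed, the Thr value of Canx was 0.08 and that of Dnajb9 −0.51.

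Of the 9 oxidoreductases, which form and rearrange disulfide bonds, 8 fell and none rose with Thr starvation, and 7 fell and 1 rose with Cys starvation. Pdia4 (ENSMUSG00000025823, chr6:47796141-47813430), a protein disulfide isomerase, counted 425, 434 and 435 CPM in controls, 327, 339 and 324 after Cys starvation and 97.2, 103 and 105 after Thr starvation. All 9 libraries fell into 3 separate groups, the Thr-starved at 23.6% and the Cys-starved at 76.5% of the control level. The log2 fold changes were −2.08 ± 0.028 (edgeR adjusted p = 7.4e-24) and −0.39 ± 0.026 (edgeR adjusted p = 1.2e-10).

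Pdia3, the isomerase that acts on glycoproteins held by calnexin and calreticulin, gave 511, 524 and 519 CPM without starvation, 400, 401 and 394 after Cys starvation and 213, 215 and 223 after Thr starvation. Pdia6 gave 354, 362 and 360, then 259, 254 and 246, then 195, 196 and 203 CPM. For both isomerases the Thr-starved libraries were lowest and the Cys-starved ones in between, with log2 fold changes of −1.25 ± 0.022 and −0.38 ± 0.022 for Pdia3 and of −0.86 ± 0.024 and −0.50 ± 0.024 for Pdia6 (edgeR adjusted p between 4.9e-22 and 7e-12). P4hb, the classical protein disulfide isomerase, fell by 0.58 with Thr starvation and by 0.25 with Cys starvation. Dnajc10, a reductase with a J domain, fell by 0.38 and 0.12.

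In 2 members of this group the decrease was larger after Cys starvation. Creld2, an ER stress-induced protein with isomerase activity, was at 63.5, 61.9 and 67.0 CPM in controls, 40.2, 42.8 and 41.7 after Cys starvation and 47.2, 47.4 and 50.7 after Thr starvation. The Cys-starved libraries were the lowest and no groups overlapped (log2 fold change −0.63 ± 0.039 for Cys and −0.40 ± 0.039 for Thr, edgeR adjusted p = 2.5e-11 and 3.9e-09). Txndc5, a thioredoxin domain isomerase, had 101, 105 and 106 CPM in controls, 73.7, 72.0 and 68.5 after Cys starvation and 77.4, 79.0 and 81.5 after Thr starvation, the same order again. Its log2 fold changes were −0.54 ± 0.032 for Cys and −0.39 ± 0.032 for Thr.

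The group also holds the ER oxidases. Ero1l, which reoxidizes protein disulfide isomerases, was at 58.7, 58.3 and 57.2 CPM in controls and rose to 72.5, 70.2 and 69.6 after Cys starvation (log2 fold change 0.29 ± 0.032, edgeR adjusted p = 2.7e-07). After Thr starvation it stood at 57.4, 57.3 and 60.6 CPM, overlapping the controls (0.01, edgeR adjusted p = 0.79), a value that was −0.02 without Thr-starved replicate 3 and −0.19 with the GC and length trend removed (edgeR adjusted p = 6.1e-06, range 6.1e-06 to 1.0 over the settings). Its paralogue Ero1lb was low, at 5.26, 4.07 and 4.60 CPM in controls, 4.44, 4.23 and 2.85 after Cys starvation and 2.73, 1.64 and 2.07 after Thr starvation. The Thr-starved libraries were all below the controls (log2 fold change −1.11 ± 0.17, edgeR adjusted p = 3.8e-06), while the Cys-starved ones overlapped them. Of the isomerases of proline bonds, Ppib fell by 0.34 with Thr starvation and 0.17 with Cys starvation. Fkbp2 did not pass the test in either comparison (0.12 and −0.12, edgeR adjusted p = 0.052 and 0.085), and both values depended on the setting. Its Thr value was called higher in 5 of 17 settings, among them 0.16 without Thr-starved replicate 1 (edgeR adjusted p = 0.022) and 0.37 with the GC and length trend removed (edgeR adjusted p = 1e-06, range 1e-06 to 0.26). Its Cys value was called lower in 1 setting, at −0.16 with the deposited size factors (edgeR adjusted p = 0.02, range 0.02 to 0.23).

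The ERAD components, which recognise, extract and ubiquitinate misfolded ER proteins, split into 6 that rose and 3 that fell with Thr starvation, with a median log2 fold change of 0.32. With Cys starvation 4 rose and 1 fell, with a median of 0.04. Herpud1 (ENSMUSG00000031770, chr8:94386438-94395377), a membrane scaffold of the HRD1 ligase complex whose promoter is shown above, gave 41.3, 42.7 and 43.9 CPM in controls, 79.0, 81.3 and 76.3 after Cys starvation and 73.0, 71.9 and 73.1 after Thr starvation. Both starved groups lay far above the controls, 1.85-fold for Cys (log2 fold change 0.89 ± 0.033, edgeR adjusted p = 4.3e-15) and 1.71-fold for Thr (0.77 ± 0.034, edgeR adjusted p = 4e-15), which made Herpud1 the member with the largest increase under Cys starvation.

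Selenos (ENSMUSG00000075701, chr7:66079649-66089405), a selenoprotein that links the p97 ATPase to the ER membrane, had 24.1, 23.1 and 24.6 CPM in controls, 27.6, 30.9 and 27.8 after Cys starvation and 58.2, 59.5 and 59.0 after Thr starvation. Its Thr-starved libraries were 2.46-fold above the controls (log2 fold change 1.3 ± 0.043, edgeR adjusted p = 3.9e-17), with the Cys-starved ones just above the controls and not overlapping them (0.27 ± 0.045, edgeR adjusted p = 5.6e-05). Os9, a lectin that hands misfolded glycoproteins to the ligase complex, was at 18, 17.2 and 17.8 CPM in controls, 20, 20.6 and 22.7 after Cys starvation and 25.2, 23.7 and 23.6 after Thr starvation. The order was the same, with log2 fold changes of 0.45 ± 0.053 and 0.26 ± 0.053 (edgeR adjusted p = 9.1e-08 and 0.00045).

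The derlins, membrane proteins of the retrotranslocation channel, did not move as one. Derl1 was at 52.3, 54.1 and 54.4 CPM in controls, 55.7, 50.7 and 52.5 after Cys starvation and 66.4, 67.3 and 67.1 after Thr starvation. Derl2 was at 31.7, 29.8 and 30.1, then 30.4, 30.3 and 31.8, then 37.1, 39.2 and 38.9 CPM. Both rose with Thr starvation, by 0.32 and 0.33 (edgeR adjusted p = 3.2e-08 and 2.5e-07), and overlapped the controls after Cys starvation. Derl3 fell by 0.71 with Thr starvation, from a control level of 8.32 to 9.24 CPM, and did not pass the test with Cys starvation (−0.05, edgeR adjusted p = 0.69). Derl1 shares a stretch of 652 bases at 95.4% identity with Gm35638, and whether reads from that stretch were assigned to the right gene was not tested.

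The core of the HRD1 ligase complex was itself divided. Its adaptor Sel1l rose by 0.18 with Thr starvation and by 0.11 with Cys starvation, the latter no longer passing the test with the deposited size factors (0.07, edgeR adjusted p = 0.077) or with the GC and length trend removed (0.07, edgeR adjusted p = 0.066, range 0.0016 to 0.077 over the settings). Its catalytic subunit Syvn1 (HRD1) fell by 0.45 with Thr starvation and had a log2 fold change of 0.04 with Cys starvation (edgeR adjusted p = 0.37). The Thr value for Syvn1 was −0.14 once the GC and length trend was removed, and that for Derl2 was 0.16. Edem1, a lectin that marks terminally misfolded glycoproteins, fell by 0.40 and 0.37. At the translocon, Sec61a1, the channel subunit, fell by 0.27 with Thr starvation and 0.17 with Cys starvation, and the small subunit Sec61b fell by 0.19 and 0.23. With the trend removed these Thr values were −0.13 for Sec61a1 and −0.08 for Sec61b.

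The sensors and their transcription factors went in opposite directions within 1 pathway. Xbp1 (ENSMUSG00000020484, chr11:5520659-5525893), the transcription factor downstream of IRE1, had 69.9, 67.8 and 69.9 CPM in controls, 63.5, 64.9 and 58.7 after Cys starvation and 28.9, 30.0 and 29.5 after Thr starvation. The Thr-starved libraries were at 42.6% of the control level (log2 fold change −1.23 ± 0.039, edgeR adjusted p = 1.3e-17) and the Cys-starved ones at 90.2% (−0.15 ± 0.036, edgeR adjusted p = 0.0021). Counts per gene do not separate the spliced from the unspliced transcript, so IRE1 activity was not read from them.

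Atf6 (ENSMUSG00000026663, chr1:170704674-170867771) was at 40.8, 44.2 and 43 CPM in controls, 54.5, 53.8 and 53.8 after Cys starvation and 87.4, 90.5 and 86.1 after Thr starvation. The 3 groups were separate and in the reverse order to Xbp1, with a 2.06-fold increase under Thr starvation (log2 fold change 1.04 ± 0.034, edgeR adjusted p = 2.5e-17) and a 1.27-fold increase under Cys starvation (0.34 ± 0.035, edgeR adjusted p = 6e-08). Its paralogue Atf6b (ENSMUSG00000015461, chr17:34647146-34655074) had 65.2, 67.7 and 67.8 CPM in controls, 71.2, 72.3 and 70.8 after Cys starvation and 79.3, 80.7 and 79.8 after Thr starvation.

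Atf6b thus rose with Thr starvation by 0.26 ± 0.029 (edgeR adjusted p = 6.1e-08), or by 0.61 with the GC and length trend removed. Its rise of 0.09 with Cys starvation (edgeR adjusted p = 0.013) no longer passed the test with the deposited size factors (0.05, edgeR adjusted p = 0.18), without unstarved replicate 1 (0.07, edgeR adjusted p = 0.088) or without Cys-starved replicate 2 (0.09, edgeR adjusted p = 0.056), over a range of 0.0052 to 0.18. Ern1 (ENSMUSG00000020715, chr11:106394650-106487852), which encodes IRE1, was scarce, at 9.92, 10.7 and 8.98 CPM in controls, 11.3, 10.1 and 13.3 after Cys starvation and 13, 14.3 and 11.1 after Thr starvation. Thr-starved libraries were all above the controls (log2 fold change 0.36 ± 0.096, edgeR adjusted p = 0.0021) and Cys-starved ones overlapped them. The Cys value of 0.23 (edgeR adjusted p = 0.069) passed the test without unstarved replicate 2 (0.29, edgeR adjusted p = 0.045), without Cys-starved replicate 2 (0.32, edgeR adjusted p = 0.016) and without Thr-starved replicate 3 (0.23, edgeR adjusted p = 0.039), over a range of 0.016 to 0.39. PERK itself, which is not a member, was at 43.9, 43.2 and 42.2 CPM in controls, 43.7, 40.9 and 44.2 after Cys starvation and 46.3, 47.9 and 48.1 after Thr starvation, so that Eif2ak3 rose with Thr starvation by 0.14 (edgeR adjusted p = 0.0024), or by 0.23 with the GC and length trend removed, and overlapped the controls with Cys starvation.

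**Figure D3:**
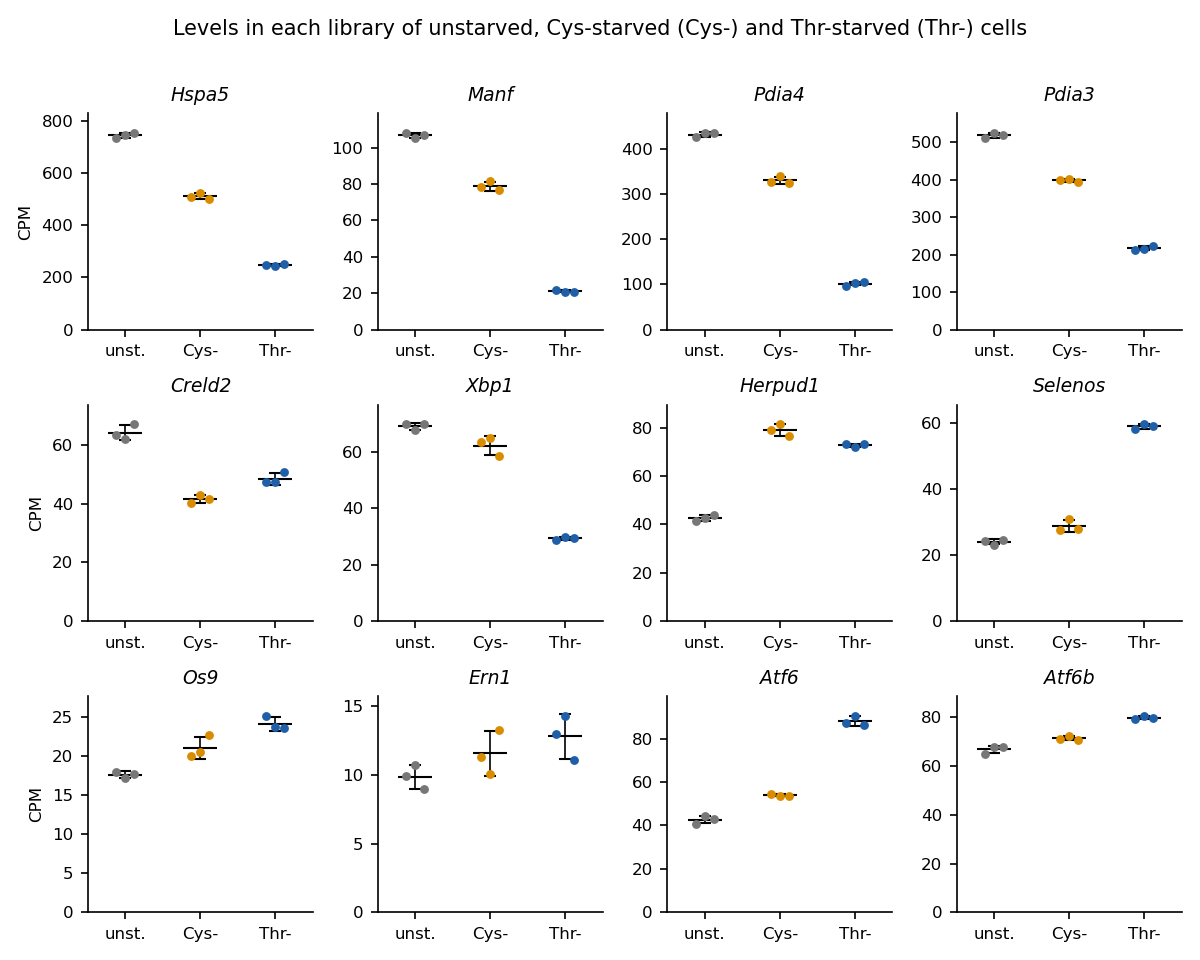
Level in CPM of 12 members in each library (points) with the mean and SD of the 3 libraries per condition, each panel with its own vertical axis from 0. Hspa5, Manf, Pdia4, Pdia3 and Xbp1 step down from unstarved to Cys-starved to Thr-starved libraries, Atf6 and Selenos step up, Creld2 is lowest after Cys starvation, and Herpud1 is raised in both.

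Levels were compared between genes per kilobase (kb) of exon, joined over all annotated transcripts of a gene, a scale on which Calr was the most abundant member in unstarved cells at 295 CPM per kb. Pdia4 (180 ± 2.19), Hspa5 (176 ± 2.40) and Hsp90b1 (174 ± 3.11 CPM per kb) followed, and neither pair of neighbours in this order differed by more than the sum of its SDs. At the low end stood Ern1 (1.21 ± 0.104) and Ero1lb (0.698 ± 0.0895). After Thr starvation the order at the top was Calr at 230 and Canx at 176 CPM per kb, with Hspa5 at 58.4 and Pdia4 at 42.4, close to Selenos at 39.9.

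**Figure D4:**
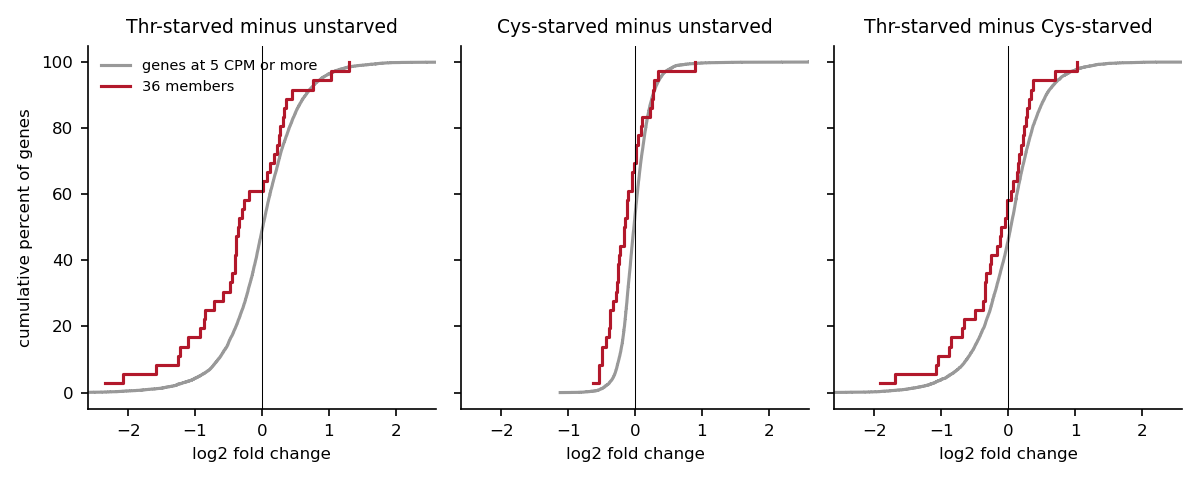
Cumulative percent of genes (vertical axis) against the log2 fold change (horizontal axis) in the 3 comparisons, for the 36 members and the 11410 genes averaging 5 CPM or more. The member curve lies left of the other curve below 0 in each panel, reaching −2.35 with Thr starvation and −0.63 with Cys starvation.

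The direct comparison of the starved groups tested the difference between Thr and Cys starvation for each gene. In it, 18 members were lower and 13 higher with Thr starvation, and Dnajb9, Calr, Edem1, Sec61b and Ern1 did not pass the test. Among all genes 31.6% were called lower and 30.4% higher (36.9% and 43.7% at 5 CPM or more), against 50% and 36.1% of the members. The member median was −0.07, beside −0.02 for all genes, and at least 1 on the log2 scale separated the starved groups for 4 lower members and 1 higher member, a size reached by 7.73% and 3.70% of all genes (3.92% and 2.49% at 5 CPM or more).

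Of the 9 oxidoreductases 7 were lower, with Creld2 and Txndc5 higher, and of the 10 chaperones 5 were lower and 3 higher. Manf was 3.76-fold lower (log2 difference −1.91 ± 0.036), Pdia4 3.24-fold lower (−1.69 ± 0.028), Xbp1 2.12-fold lower (−1.08 ± 0.039) and Hspa5 2.07-fold lower (−1.05 ± 0.021) after Thr than after Cys starvation, with edgeR adjusted p between 4.9e-22 and 1.7e-16. Pdia3 differed by −0.88 ± 0.022 and Hsp90b1 by −0.69 ± 0.020. For each of these 6 genes the lowest Cys-starved library was above the highest Thr-starved one. Such separation was common, as the starved groups did not overlap, in either direction, for 65.8% of all genes (81.6% at 5 CPM or more).

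Higher after Thr than after Cys starvation were Selenos, 2.05-fold (log2 difference 1.03 ± 0.042, edgeR adjusted p = 1.8e-15), and Atf6, 1.63-fold (0.70 ± 0.033, edgeR adjusted p = 2.2e-14). Dnajc3 differed by 0.37 ± 0.038, Derl1 by 0.34 ± 0.035 and Derl2 by 0.32 ± 0.041, and Canx by 0.27 ± 0.021. In each of these genes the starved groups did not overlap, and with the GC and length trend removed the difference was 0.24 for Dnajc3, 0.19 for Derl2 and 0.12 for Canx. Creld2 was higher by 0.22 ± 0.040 and Txndc5 by 0.15 ± 0.033 (edgeR adjusted p = 3.6e-05 and 0.00028), or by 0.26 for Txndc5 with that trend removed. Atf6b, Os9 and Fkbp2, which were higher by 0.16, 0.19 and 0.24, were higher by 0.53, 0.43 and 0.49 with the trend removed.

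Several small differences turned on the scaling or on 1 library. Herpud1 was lower after Thr than after Cys starvation by 0.12 ± 0.032 (edgeR adjusted p = 0.0028), but not with the deposited size factors (−0.07, edgeR adjusted p = 0.054) or the GC and length trend removed (−0.04, edgeR adjusted p = 0.21, range 0.0011 to 0.21). Sec61a1 was lower by 0.10 (edgeR adjusted p = 0.0053), with −0.05 under the deposited size factors (edgeR adjusted p = 0.13), −0.06 without Thr-starved replicate 1 (edgeR adjusted p = 0.085) and 0.07 with the trend removed (edgeR adjusted p = 0.011, range 0.0016 to 0.13). Sel1l was higher by 0.07 (edgeR adjusted p = 0.031), which did not pass without Cys-starved replicate 1, Cys-starved replicate 2 or Thr-starved replicate 3 (0.06, 0.07 and 0.06, edgeR adjusted p = 0.096, 0.058 and 0.087, range 0.0011 to 0.096). Ern1 did not pass (0.14, edgeR adjusted p = 0.21) but did without Cys-starved replicate 3 (0.25, edgeR adjusted p = 0.027) or Thr-starved replicate 3 (0.24, edgeR adjusted p = 0.031, range 0.011 to 0.70).

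Among the other members called lower, 4 also shifted markedly with the GC and length trend. After its removal Hyou1 differed by −0.19 in place of −0.38, P4hb by −0.18 in place of −0.33, Syvn1 by −0.16 in place of −0.49 and Ero1l by −0.43 in place of −0.27. All 4 genes stayed lower after Thr starvation.

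**Figure D5:**
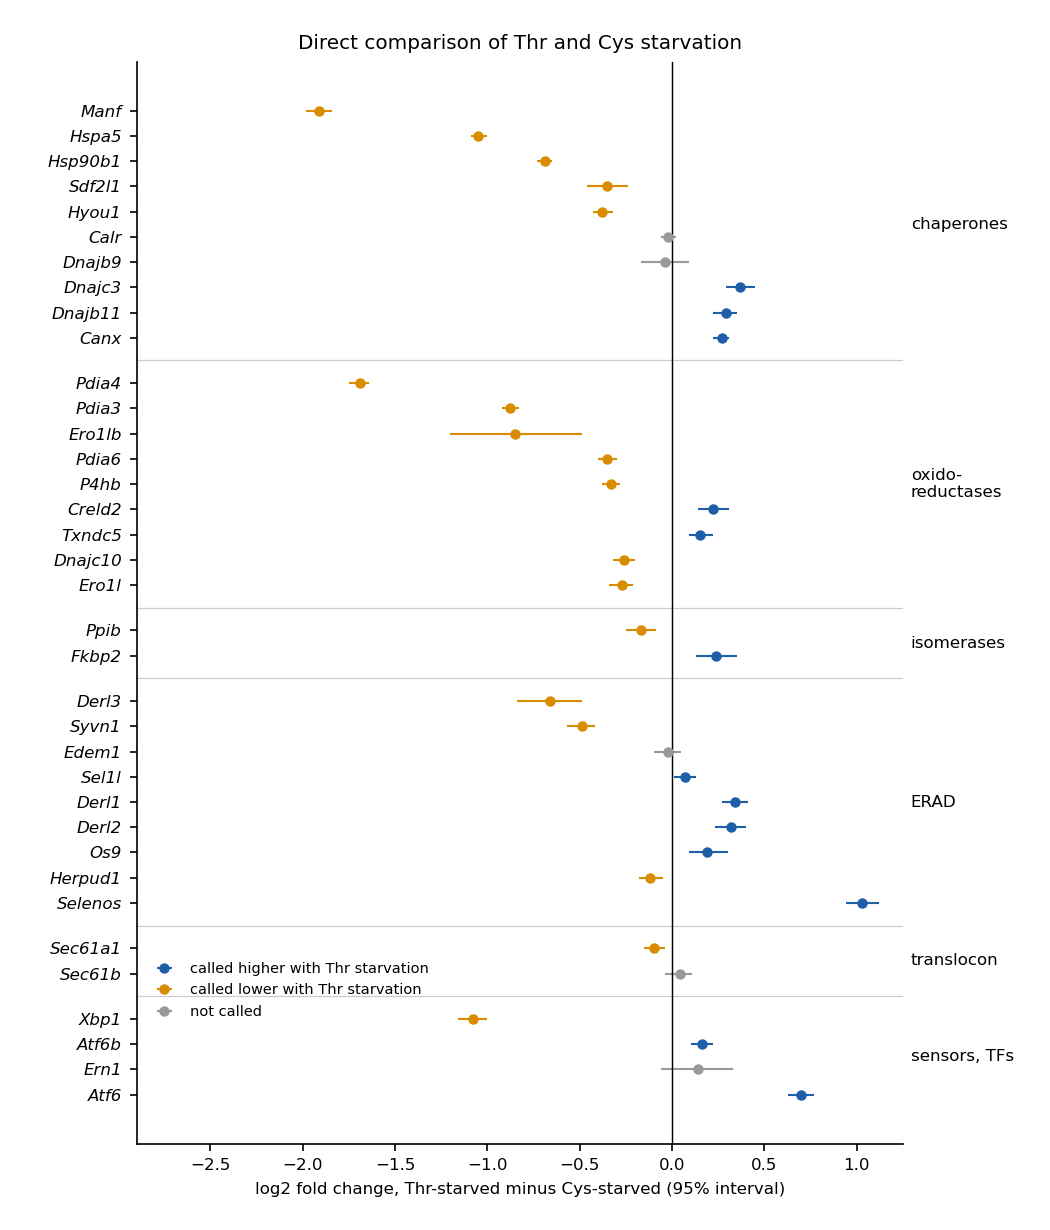
Log2 fold change between Thr-starved and Cys-starved libraries for each of the 36 members (points, with the 95% interval as bars), grouped by role; values below 0 are lower after Thr starvation, and grey marks the 5 members that were not called. Manf, Pdia4, Xbp1 and Hspa5 lie below −1 and Selenos above 1.

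The promoter feature can be set beside these values. Of the 18 members with a window that fell with Thr starvation, 7 held an ERSE (38.9%), namely Hspa5, Hsp90b1, Pdia6, Creld2, Calr, Syvn1 and Derl3, and of the 9 that rose 1 did, Canx (11.1%). With ERSE-II counted as well, the shares were closer, at 38.9% of those that fell and 33.3% of those that rose. With Cys starvation an ERSE was held by 35.3% of the 17 that fell, 0 of the 5 that rose and 42.9% of the 7 not called. The member median was −0.45 for the 9 with an ERSE and −0.24 for the 20 without under Thr starvation, and −0.29 and −0.13 under Cys starvation. Over all genes with a window the medians with and without an ERSE were −0.26 and −0.01 under Thr starvation and −0.03 and 0.03 under Cys starvation, where the 23 genes with the element include the 9 members. Pdia4 and Pdia3, which fell strongly, held no match to this spelling in their windows. No test was made on these medians.

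The share of codons for the withdrawn amino acids also did not enter the choice of members. Over the members the median share of Cys codons was 1.3%, below the 1.93% of 14683 genes, and that of Thr codons 4.57%, below 5.08%. The oxidoreductases had a median of 2.88% Cys codons, the share of Txndc5. Dnajc10, Ero1l, Ero1lb and Creld2 were above it. Pdia4 (0.936%), P4hb (1.38%), Pdia6 (1.57%) and Pdia3 (1.58%) were below the median of all genes. Codons were counted in the longest annotated coding sequence of each gene, which need not be the form these cells express. On that sequence the highest shares of Cys codons were in Creld2 (38 of 350, 10.9%) and Sec61b (9 of 117, 7.69%). Other annotated forms were not examined. Hspa5 had the highest share of Thr codons, 7.63% (50 of 655).

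The pathway holds further genes, of which 85 were tested as a list of other translocon, glycosylation, ERAD, chaperone, oxidoreductase and UPR genes. With Thr starvation 45 of these rose (52.9%) and 26 fell (30.6%, median 0.15), against 31.1% and 31.9% of all genes (41.5% and 39.1% at 5 CPM or more). With Cys starvation 30 rose (35.3%) and 24 fell (28.2%, median 0.03), against 17.5% and 18.8% (24.6% and 30.5%). After Thr starvation 46 were higher (54.1%) and 23 lower (27.1%) than after Cys starvation, against 30.4% and 31.6% (43.7% and 36.9%). The median of the 85 genes under Thr starvation thus had the opposite sign to that of the 36 members. Counts of the shorter lists below are to be read against the same shares of all genes. Among the 14 other oxidoreductases 8 rose and 4 fell with Thr starvation, and among the 18 other ERAD genes 11 rose and 6 fell, with 5 up and 5 down and 8 up and 2 down after Cys starvation. The 14 other genes of the translocon, signal peptidase and TRAP complex, which bring chains into the ER, had 5 higher and 3 lower with Thr starvation and 1 higher and 7 lower with Cys starvation, and 10 of them were higher and 1 lower after Thr than after Cys starvation. For the 12 genes of N-glycan transfer and the lectin cycle the counts were 6 higher and 4 lower with Thr and 2 and 5 with Cys starvation, for the 14 other chaperones 7 and 6 with Thr and 7 and 2 with Cys, and for the 8 other genes of UPR sensing and processing 3 and 3 with Thr and 2 and 3 with Cys.

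The 5 genes of the PERK arm that are shared with the ISR all rose in each starvation, the only group of the list to do so. Both changes are against the same unstarved libraries, so their likeness is again not used as a result. Atf4, the transcription factor translated when eIF2α is phosphorylated, had 349, 359 and 355 CPM in controls, 458, 459 and 446 after Cys starvation and 582, 588 and 598 after Thr starvation. Ddit3 (CHOP), a pro-apoptotic factor, had 14.4, 16.3 and 15.8, then 18.6, 18.2 and 18.2, then 85.0, 87.4 and 83 CPM. The increase of Ddit3 was therefore large with Thr starvation (log2 fold change 2.46 ± 0.044) and small with Cys starvation (0.24 ± 0.048, edgeR adjusted p = 0.0003), and the starved groups differed by 2.21 ± 0.042 (edgeR adjusted p = 3.8e-21).

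Chac1, which degrades glutathione, was instead higher after Cys starvation, at 27.1, 29.3 and 26.4 CPM in controls, 125, 127 and 128 after Cys starvation and 96.6, 92.9 and 95.8 after Thr starvation. Both starved groups were far above the controls, and they differed from each other by −0.41 ± 0.031 (edgeR adjusted p = 9.2e-11), or by −0.24 with the GC and length trend removed. Ppp1r15a (GADD34), the phosphatase subunit that reverses eIF2α phosphorylation, rose by 0.97 with Thr starvation and by 0.87 with Cys starvation. Trib3, a pseudokinase target of ATF4 and CHOP, rose by 1.08 and 1.12, and its difference between the starved groups of −0.05 (edgeR adjusted p = 0.15) was −0.08 without Thr-starved replicate 3 (edgeR adjusted p = 0.019) and 0.19 with the trend removed (edgeR adjusted p = 2.4e-07, range 2.4e-07 to 0.98).

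Outside that group, Txndc11, a thioredoxin-like partner of Edem proteins, showed the largest decrease of the 85 with Thr starvation, from 33.1, 34.1 and 33.9 CPM to 13.6, 13.9 and 15.0 (log2 fold change −1.24 ± 0.047), with 26.3, 25.6 and 26.0 after Cys starvation (−0.38 ± 0.043). The ER stress transducer Creb3l2 and the PDI-like protein Erp29 fell with Thr starvation by 0.82 and 0.72, and the oligosaccharyltransferase subunit Stt3b and the isomerase Pdia5 fell with Cys starvation by 0.29 and 0.42. Dnajb14, a J protein of the ER membrane, rose from 11.7, 13.8 and 11.2 CPM to 32.6, 32.5 and 32.9 with Thr starvation (1.41 ± 0.064). Tmx1, a membrane-bound thioredoxin, was 0.98 ± 0.038 higher and Ppic, a cyclophilin, 0.69 ± 0.074 lower after Thr than after Cys starvation.

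The cell type was checked on marker genes. All 8 pluripotency markers were detected, with a summed level of 3850 to 3880 CPM in the unstarved, 3720 to 3740 in the Cys-starved and 4140 to 4230 CPM in the Thr-starved libraries. Of 8 fibroblast markers, listed because ES cells are often grown on feeder layers, Lum, Dcn, Postn and S100a4 were not analysed here, and the other 4 summed to 12.0 to 14.9 CPM in unstarved and Cys-starved and 9.48 to 10.5 in Thr-starved libraries. The 8 endoderm markers, from a lineage with an active secretory pathway, summed to 358 to 384, 364 to 381 and 376 to 398 CPM in the unstarved, Cys-starved and Thr-starved libraries, mostly from Lama1 and Sparc. Markers of the primed epiblast (4 genes, mostly Dnmt3b) summed to 238 to 247, 183 to 191 and 151 to 155 CPM, of mesoderm (3 of 4 analysed) to 5.91 to 7.49, 5.33 to 5.97 and 2.63 to 2.83 CPM, and of neuroectoderm (4 genes) to 64.9 to 66.1, 75.3 to 79.3 and 75.7 to 78.6 CPM. The primed epiblast sum was thus lower and the neuroectoderm sum higher in both starved groups than in the unstarved libraries they share. The mesoderm sum was lower in the Thr-starved libraries. Single markers did not all follow their sum: Otx2, of the primed epiblast list, rose with Thr starvation by 0.73 on the log2 scale (edgeR adjusted p = 1.7e-10), and Pax6, of the neuroectoderm list, did not pass the test with it (0.13, edgeR adjusted p = 0.16). With Thr starvation Nanog, Pou5f1 and Dppa5a fell by 0.42, 0.17 and 0.12, while Sox2, Esrrb, Zfp42, Klf4 and Tfcp2l1 rose by 0.12 to 0.85. Of the endoderm list, Sox7 and Sparc fell by 1.69 and 0.50, and Lama1, Gata4 and Sox17 rose by 0.54, 0.36 and 1.2. The part of these markers in the changes of the members was not tested.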

How the data were processed

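RNA-seq libraries of wild-type E14 cells were grouped by their titles into Thr-starved, Cys-starved and unstarved cells (3 each). Per the labels, libraries were made with a directional poly(A) kit, and the submitters' processing notes list bcl2fastq, FastQC (version 0.11.7), STAR (2.7.4a), HTSeq, R (4.0.3), DESeq2 and DESeq (1.30.1) with GRCm38; settings for strand and overlapping genes are not given in the sources used here. The authors deposited raw read counts per Ensembl gene, which were used for all results, and a table of normalized signal, which equalled the counts divided by 1 factor per library (largest relative deviation 4.9e-10) and gave only the deposited size factors used as an alternative.

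Genes with at least 1 count over the 9 libraries (20143 of 20189) were fitted together in edgeR (4.0.16, R 4.3.3) with TMM scaling and the quasi-likelihood test, with 3 contrasts and Benjamini-Hochberg adjusted p-values over all genes, called at 0.05 or less. CPM are TMM-scaled. The coefficient of variation between replicates was 3.53%. For genes with few counts, replicate pairs differed with a chi-square of 1.98 to 2.13 per gene. That is more than counting noise gives if each count is an independent read, which was not tested. Symbols and exon lengths came from GENCODE M21, promoters from RefSeq. Alternatives used DESeq2 (1.42.0), other scalings and filters, a replicate term, a loess correction (span 0.3) for GC content and length, and fits leaving out each library. The script was tested on simulated data.

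Members and gene lists were chosen with earlier results of these data known. Values in every library are given for Hspa5, Herpud1, Xbp1, Ern1, Atf6, Atf6b, Eif2ak3 and, per comparison, the 5 called members that rose most and the 5 that fell most, provided their level averaged 5 CPM or more; those of Ero1lb and Canx were added after their values were seen. From the other pathway genes, Atf4, Ddit3, Ppp1r15a, Trib3, Eif2ak3 and the 3 largest called changes per direction were named. BLAST (2.17.0) found stretches of at least 200 bases at 95% identity in another gene for 6 members (Derl1, Ero1lb, Hsp90b1, Ppib, Sec61a1 and Txndc5). For Hsp90b1, Sec61a1 and Txndc5 the matching gene overlaps the member on the other strand, as does Snx22, a match of Ppib. These matches are therefore not copies elsewhere. Of the members, 8 overlap another counted gene (Derl2, Hsp90b1, Manf, Pdia3, Pdia6, Ppib, Syvn1 and Txndc5). The values of the members named here are uncertain to that extent.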

Additional observations from a re-analysis of the deposited data

How the results depend on the processing

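Over 17 alternative fits, 33 of 36 members kept direction and call with Thr starvation, 28 with Cys starvation and 28 between the starved groups. A minimum log2 fold change of 1 left 2 members higher and 6 lower (2668 genes) with Thr, 0 and 0 (296 genes, 81.4% higher) with Cys and 1 and 4 (2303 genes, 32.4% higher) between starved groups. Removing the GC and length trend gave a member median of −0.31 with Thr. The deposited size factors gave −0.20 with Cys and −0.02 between starved groups. Leaving out 1 library each gave, with Thr, 11 to 12 members higher, 22 lower, 12096 to 12689 genes and medians of −0.36 to −0.32. With Cys these were 6 to 8, 20, 6520 to 7475 and −0.17 to −0.13, and between starved groups 12 to 14, 17 to 18, 11788 to 12540 and −0.10 to −0.05.

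Directions turned in the following cases, and the cause was not tested. Removing the GC and length trend gave −0.09 for Dnajc3 and −0.19 for Ero1l with Thr, −0.04 for Canx and −0.03 for Derl2 with Cys, and 0.07 for Sec61a1, 0.05 for Pdia5 and 0.19 for Trib3 between starved groups. The deposited size factors gave −0.04 for Canx and −0.03 for Derl2 with Cys, and 0.02 for Calr, 0.01 for Dnajb9, 0.02 for Edem1 and 0.02 for Pdia5 between starved groups. A minimum of 10 counts in every library gave 0.00 for Eif2ak3 with Cys. Over the fits leaving out 1 library, values ranged from −0.02 to 0.03 for Ero1l with Thr, from −0.03 to 0.03 for Eif2ak3, −0.01 to 0.04 for Derl2, −0.01 to 0.01 for Canx and −0.05 to 0.01 for Derl1 with Cys, and from −0.06 to 0.02 for Edem1, −0.09 to 0.02 for Dnajb9 and −0.01 to 0.07 for Sec61b between starved groups. Of these, only Sec61a1 was called in the reported fit.

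Replicate numbers did not pair the libraries (correlations of same-numbered deviations from −0.244 to 0.106). With a replicate block 11 members rose and 22 fell with Thr (12488 genes), 7 and 20 with Cys (7063) and 13 and 18 between starved groups (12334), with medians of −0.35, −0.16 and −0.07, and no member call changed. No alternative shifted the median of all genes by over 0.044. Ern1 and Ero1lb, with few counts, had the widest errors.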
